A study of Mus musculus with 12 samples.

Results

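Phgdh, Psat1, Psph, Shmt1, Shmt2, Gldc, Aldh1l1 and Mthfd1 encode enzymes that make serine, convert it into glycine, break glycine down and move the released carbon on folate. These 8 genes, of 55401 in the deposited count table, were chosen by name, with earlier results of these data known. Counts and medians set beside those of all genes therefore describe these genes and are no test of them as a set. All 8 were found in the table and all 8 passed the filter on low counts. RNA had been sequenced in bulk from astrocytes sorted from CD51-Flp; Rosa-CAG-FSF-tdTomato reporter mice, in which a CD51-driven Flp recombinase switches on the red protein tdTomato. CD51 is the integrin alpha-v subunit, encoded by Itgav. The 4 groups of 3 libraries were cortex CD51+ cells (tdTomato and GFP), cortex CD51- cells (GFP without tdTomato), hippocampus CD51+ cells and hippocampus CD51- cells. All 4 came from mice of that 1 reporter line. Age and the promoter that drives GFP are not given in the sources used here. Recombination is permanent, so tdTomato can mark past as well as present CD51 expression. The labels do not say that the 3 libraries of a group came from separate animals, so p-values reflect how far these libraries spread, which may be technical.

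Library names carry the letter G where the title says CD51+ and the letters GT where it says CD51-, and these letters may mean the reverse of the titles. Were the titles exchanged, each CD51 difference given here would change sign. Itgav itself averaged 584 ± 274 CPM in cortex CD51+ and 311 ± 56.7 CPM in cortex CD51- libraries (SD, n = 3 each), with overlapping libraries and an adjusted p of 0.269 by edgeR. CPM are counts per 1000000 counts on TMM-scaled library sizes, and an adjusted p comes from edgeR's quasi-likelihood test with Benjamini-Hochberg adjustment over 12613 genes, with a threshold of 0.05. Itgav averaged 369 ± 44.4 CPM in hippocampus CD51+ and 381 ± 172 CPM in hippocampus CD51- libraries, which overlapped too (adjusted p = 0.984).

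Total counts were 4351897 to 12847183 per library, of which mitochondrially encoded genes took 20.2% to 71.1%. The summed level of 20 astrocyte markers, none of them a member, was 50414 to 81938 CPM in the 6 CD51+ libraries and 4729 to 17161 CPM in the 6 CD51- libraries. The 12 oligodendrocyte markers summed to 1257 to 5014 CPM in CD51+ and 6918 to 64022 CPM in CD51- libraries, and exceeded the astrocyte markers in 5 of the 6 CD51- libraries. The 14 microglial markers summed to 207 to 1719 CPM in CD51+ and 5625 to 12064 CPM in CD51- libraries. The 6 markers of other leukocytes summed to 0.168 to 31.0 CPM in CD51+ and 477 to 627 CPM in CD51- libraries, with Cd3e at 0 in both classes. The 7 ependymal and choroid plexus markers differed by region. In cortex they summed to 24.4 to 83.1 CPM in CD51+ and 58.2 to 436 CPM in CD51- libraries. In hippocampus they summed to 450 to 2120 CPM in CD51+ and 1263 to 5624 CPM in CD51- libraries. Astrocyte markers were the largest of these sums in 6 of 6 CD51+ libraries and in 1 of 6 CD51- libraries, hippocampus replicate 3. In such bulk samples, fewer cells of a type and less RNA per cell cannot be told apart.

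Serine is made from a glycolytic intermediate in a short chain of reactions, and hydroxymethyltransferases then move a carbon from serine onto folate, leaving glycine. The glycine cleavage system of mitochondria degrades glycine and loads folate with another carbon. Folate carries these carbons toward purines, thymidylate and methionine. In the adult brain this chemistry is largely a trait of astrocytes: Phgdh protein is abundant in them and scarce in neurons, Gldc is prominent in astrocytes, and Aldh1l1 is a standard marker of the whole astrocyte population.

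In cortex, Aldh1l1 and Gldc rose and Shmt1 fell, 3 of 8 members, against 11.3% of all genes tested. By direction, 5.05% of all genes were called higher and 6.27% lower. The median fitted log2 fold change of the 8 members was 2.99, against -0.03 over all genes. In hippocampus 0 of 8 members passed the edgeR test, where 3.31% of all genes did (0.618% higher, 2.7% lower). There, 2 members had an unadjusted p under 0.05, a count for which the share of all genes was not taken. DESeq2 and limma-voom each called Shmt1 alone, 1 of 8 members, where they called 11.6% and 7.02% of all genes. The median over the members in hippocampus was 1.27, against -0.22 over all genes. Averaged over both regions, Psat1, Gldc and Aldh1l1 were higher and Shmt1 was lower, 4 of 8 members against 22.7% of all genes (8.87% higher, 13.9% lower).

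**Figure D1:**
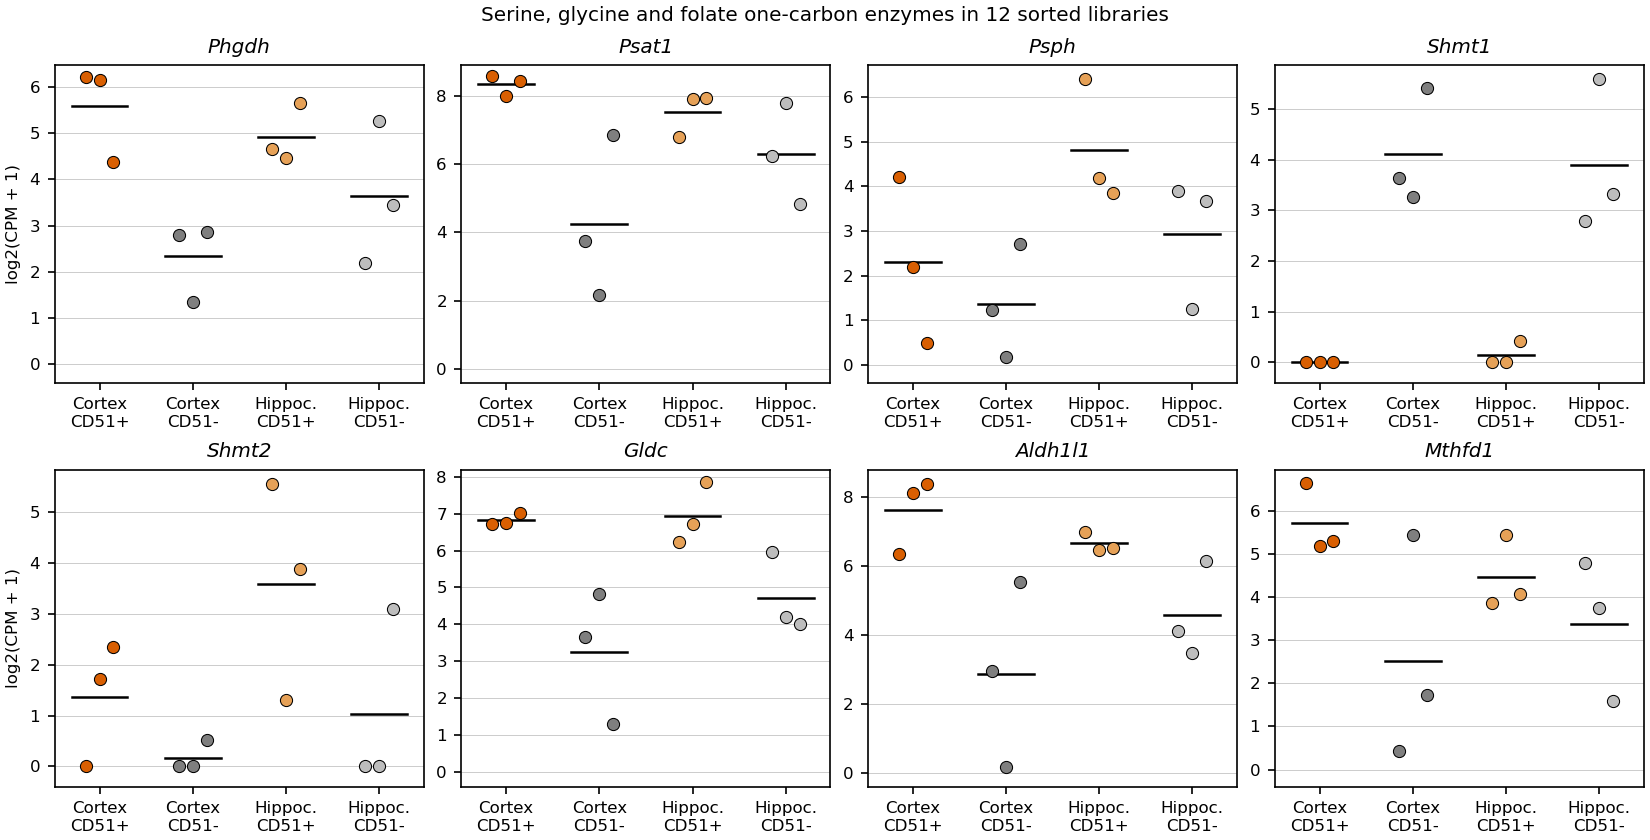
Level of each of the 8 enzymes in each of the 12 libraries, as log2(CPM + 1) on the vertical axis, by region and CD51 class on the horizontal axis. Points are libraries and lines are means of 3. In cortex the CD51+ points of Phgdh, Psat1, Gldc and Aldh1l1 lie above all CD51- points, and the CD51+ points of Shmt1 lie at 0.

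Because Psat1, Gldc and Aldh1l1 moved together and Shmt1 moved against them in the average over regions, their start regions are shown, from 250 bases before to 50 bases after an annotated RefSeq transcript start on GRCm38.p6. Each runs 5′ to 3′ on the gene's strand, and capitals mark GC boxes, GGGCGG or its complement CCGCCC. The Psat1 window is chr19:15924573-15924872 on the minus strand, 1 of 2 annotated starts, the other with no GC box. The Gldc window is chr19:30175392-30175691 on the minus strand. The Aldh1l1 window is chr6:90550543-90550842 on the plus strand. The Shmt1 window is chr11:60811216-60811515 on the minus strand.
Psat1: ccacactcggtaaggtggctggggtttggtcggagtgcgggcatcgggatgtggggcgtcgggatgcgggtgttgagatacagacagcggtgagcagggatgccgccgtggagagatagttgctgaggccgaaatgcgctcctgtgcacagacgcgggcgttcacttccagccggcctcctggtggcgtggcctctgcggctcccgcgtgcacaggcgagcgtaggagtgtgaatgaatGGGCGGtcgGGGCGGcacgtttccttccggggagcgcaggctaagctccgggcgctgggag
Gldc: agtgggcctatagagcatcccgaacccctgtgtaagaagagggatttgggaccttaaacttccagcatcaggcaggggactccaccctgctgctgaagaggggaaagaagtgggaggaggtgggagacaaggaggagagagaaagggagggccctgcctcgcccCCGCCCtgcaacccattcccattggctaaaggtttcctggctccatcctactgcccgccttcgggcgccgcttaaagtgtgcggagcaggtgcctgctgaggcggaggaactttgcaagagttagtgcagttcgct
Aldh1l1: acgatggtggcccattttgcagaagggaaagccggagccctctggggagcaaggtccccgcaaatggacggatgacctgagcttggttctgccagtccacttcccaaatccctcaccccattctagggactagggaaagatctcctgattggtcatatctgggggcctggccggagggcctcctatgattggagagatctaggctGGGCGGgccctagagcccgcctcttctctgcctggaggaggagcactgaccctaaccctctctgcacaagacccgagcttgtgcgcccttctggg
Shmt1: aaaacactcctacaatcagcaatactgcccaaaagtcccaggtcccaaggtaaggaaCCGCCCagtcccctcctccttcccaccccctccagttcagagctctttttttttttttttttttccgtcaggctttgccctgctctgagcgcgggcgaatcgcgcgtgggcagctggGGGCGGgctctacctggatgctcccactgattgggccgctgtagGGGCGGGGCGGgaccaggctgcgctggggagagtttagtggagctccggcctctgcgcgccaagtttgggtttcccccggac
The Psat1 window held 2 GC boxes, the Gldc and Aldh1l1 windows 1 each, and the Shmt1 window 4, a pair of which overlap by 1 base. Over all 8 members, 6 had a GC box in a window, against 35.7% of the 32851 windows in the table. Phgdh and Shmt2 had none. Searched on both strands, the Atf4-type element TGATGNAA was in 0 of the 8 members' windows and in 3.97% of all windows. The E-box CACGTG, a Myc-type element, was also in 0 of 8, against 7.15% of all windows. The full palindromic site of nuclear factor I proteins was in 0 of 8, against 0.0365% of all windows. At shares this low, 0 of 8 is a likely outcome for any genes, so it does not show a lack of these elements. The higher and the lower members thus both carry GC boxes, and these letters do not separate them.

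The enzymes of serine synthesis come first in the pathway. Phgdh, phosphoglycerate dehydrogenase, catalyses the committed step (chromosome 3, 98313170 to 98339990, minus strand, mm10). In cortex it had 74.1, 70.3 and 19.7 CPM in CD51+ libraries, against 5.99, 1.56 and 6.27 CPM in CD51- libraries. Every cortex CD51+ library was above every cortex CD51- library, and CD51+ replicate 3 was the lowest of its group. The fitted difference was a log2 fold change of 3.56 ± 1.35 (SE), with an adjusted p of 0.0801, so it missed the threshold. It passed in 1 of 22 alternatives, DESeq2 (adjusted p = 0.00358). In hippocampus Phgdh had 24.1, 20.9 and 49.6 CPM in CD51+ libraries, against 3.53, 37.6 and 9.96 CPM in CD51- libraries. The hippocampal groups overlapped through CD51- replicate 2, and the log2 fold change of 0.89 ± 1.23 did not pass (adjusted p = 0.793). Averaged over regions, Phgdh differed by 2.23 ± 0.91 and missed the threshold (adjusted p = 0.0788). That difference passed in 2 of 21 alternatives, DESeq2 (adjusted p = 0.00869) and limma-voom (0.0418).

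Psat1, phosphoserine aminotransferase, takes the next step (chromosome 19, 15904678 to 15947337, minus strand, mm10). Its mean per length was the highest of the members in all 4 groups, in cortex CD51- through replicate 3: there Psat1 had 2.90, 0.817 and 26.8 RPKM (CPM per kilobase of exon), and Shmt1 exceeded it in replicates 1 and 2. Cortex CD51+ libraries had 380.0, 253 and 345 CPM of Psat1, against 12.3, 3.47 and 114 CPM in cortex CD51- libraries. These groups did not overlap, and CD51- replicate 3 stood well above its own group. The cortex log2 fold change of Psat1 was 2.91 ± 0.97, with an adjusted p of 0.0534, just outside the threshold. It passed in 11 of 22 alternatives, among them DESeq2 (adjusted p = 0.0196) and limma-voom (0.0131), and missed in 11 (up to 0.131). Hippocampus CD51+ libraries had 109, 237 and 243 CPM, against 74.2, 222 and 27.3 CPM in hippocampus CD51- libraries. The hippocampal libraries overlapped, with a log2 fold change of 0.86 ± 0.91 (adjusted p = 0.710). Averaged over regions, Psat1 rose by a log2 fold change of 1.89 ± 0.66 (adjusted p = 0.0420). This call ended without any 1 of 8 libraries, at adjusted p-values of 0.0527 to 0.0768: cortex CD51+ replicates 1 and 3, cortex CD51- replicates 1 and 2, hippocampus CD51+ replicates 2 and 3, and hippocampus CD51- replicates 1 and 3. Without cortex CD51- replicate 3, the cortex difference of Psat1 was 5.31 (adjusted p = 0.000721).

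Psph, phosphoserine phosphatase, releases free serine in the last step (chromosome 5, 129765558 to 129787449, minus strand, mm10). It was scarce in cortex, with 17.6, 3.59 and 0.406 CPM in CD51+ libraries, against 1.35, 0.120 and 5.54 CPM in CD51- libraries. The cortex groups overlapped, with a log2 fold change of 1.62 ± 1.73 (adjusted p = 0.567), which became -0.20 without cortex CD51+ replicate 1. In hippocampus Psph had 84.0, 17.2 and 13.6 CPM in CD51+ libraries, against 14, 1.39 and 11.7 CPM in CD51- libraries. These too overlapped, by little, with a log2 fold change of 2.08 ± 1.74 (adjusted p = 0.604). Exons of Psph share 452 bases with Cct6a on the opposite strand, and the unstranded counting cannot separate both genes there.

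The pair of serine hydroxymethyltransferases behaved differently. Shmt1, the cytosolic enzyme, interconverts serine and glycine with tetrahydrofolate (chromosome 11, 60788104 to 60811718, minus strand, mm10). It had 0 counts in each of the 3 cortex CD51+ libraries, against 137, 72 and 285 counts in the cortex CD51- libraries. In CPM the cortex CD51- libraries had 11.6, 8.63 and 41.6 of Shmt1. Every cortex CD51- library thus held Shmt1 reads and no cortex CD51+ library did. Taking the floor of 3 counts over a group for 0, Shmt1 was at least 114-fold lower in cortex CD51+ libraries (adjusted p = 0.0210). Without cortex CD51+ replicate 1, 2 or 3 the adjusted p was 0.0614, 0.0638 and 0.0587. In hippocampus, CD51+ libraries had 0, 0 and 2 counts of Shmt1, against 72, 508 and 100 counts in CD51- libraries. The single CD51+ library with reads, replicate 3, stood at 0.335 CPM, below the lowest hippocampus CD51- library at 5.91 CPM. The pooled level was 178 times as high in CD51- as in CD51+ hippocampus (95% counting interval 49.1 to 1472), with an adjusted p of 0.103 by edgeR. DESeq2 and limma-voom gave 0.000697 and 0.0125 for the same contrast. Over both regions Shmt1 had 2 counts in 6 CD51+ libraries and 1174 in 6 CD51- libraries, a ratio of 351 (96.9 to 2899), and fell in CD51+ with an adjusted p of 0.00187. Counting intervals and the floor cover counting error only.

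Shmt1 abuts Smcr8, a gene of autophagy and membrane traffic, on the opposite strand, and their exons share 184 bases. Smcr8 had 7.39, 27.4 and 5.68 CPM in cortex CD51+ libraries, against 158, 122 and 166 CPM in cortex CD51- libraries. In hippocampus it had 8.26, 1.61 and 23.1 CPM in CD51+ libraries, against 111, 64.2 and 139 CPM in CD51- libraries. Smcr8 was therefore lower in CD51+ libraries of both regions without overlap, and its fall passed the test in cortex (log2 fold change -3.46 ± 1.0, adjusted p = 0.0289) but not in hippocampus (-3.25 ± 0.99, adjusted p = 0.0753). Counting did not use strand, so its part in the Shmt1 counts was not tested. Shmt1 also moved with the oligodendrocyte, microglial and leukocyte markers, whose summed levels were higher in every CD51- than in every CD51+ library. The part of those cells in the Shmt1 difference was not tested.

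**Figure D2:**
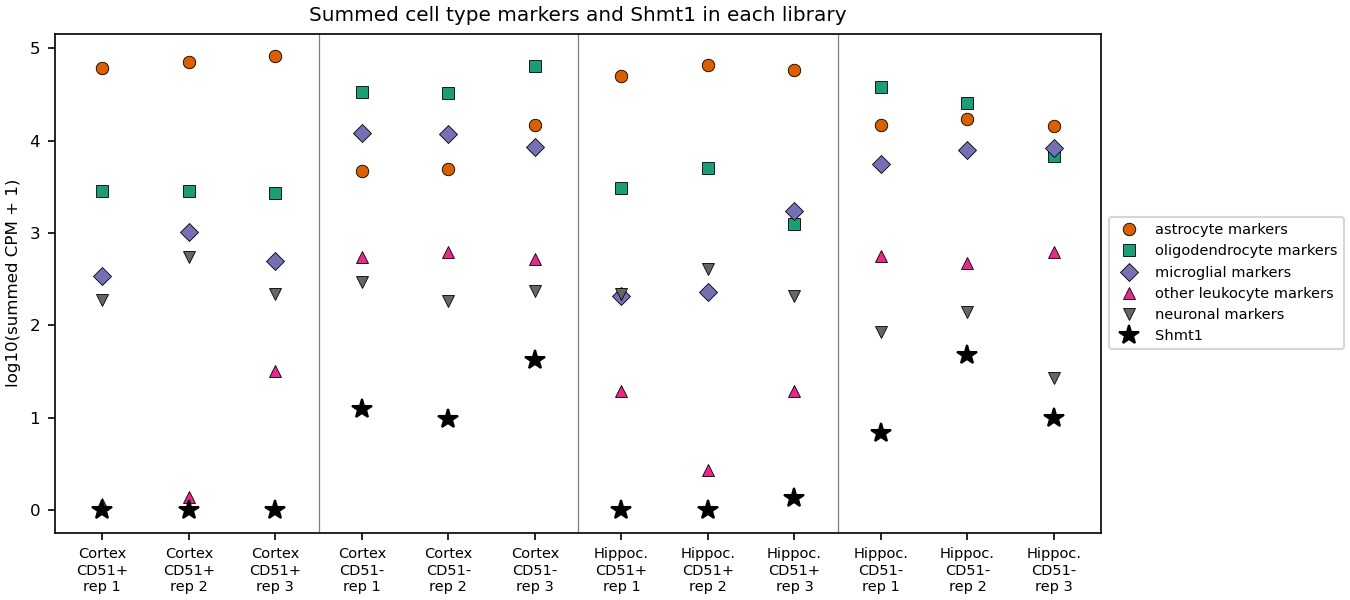
Summed CPM of 5 marker lists and the CPM of Shmt1 in each of the 12 libraries, on a log10(value + 1) vertical axis, with libraries along the horizontal axis. Stars show Shmt1, at 0 in 5 of 6 CD51+ libraries and between 5.91 and 47.2 CPM in CD51- libraries, where the oligodendrocyte, microglial and other leukocyte markers were also high.

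Shmt2, the mitochondrial counterpart, feeds the mitochondrial folate arm (chromosome 10, 127517123 to 127522444, minus strand, mm10). It was the least counted member, with 418 counts over all 12 libraries. In cortex it had 0, 18 and 20 counts in CD51+ libraries, against 0, 0 and 3 counts in CD51- libraries. The cortex ratio of pooled levels was 18.3 (95% counting interval 5.82 to 92.9), and the libraries overlapped at 0 (adjusted p = 0.336). In hippocampus Shmt2 had 46.1, 1.48 and 13.7 CPM in CD51+ libraries, against 0, 0 and 7.52 CPM in CD51- libraries. Reads came from all 3 hippocampus CD51+ libraries and from 1 of 3 CD51- libraries, with a log2 fold change of 3.02 ± 2.47 (adjusted p = 0.595). Averaged over regions Shmt2 did not pass either (adjusted p = 0.181). That depends on hippocampus CD51- replicate 3, the library that holds the CD51- reads there, since without it the averaged adjusted p was 0.0329. A difference in Shmt2 is thus neither shown nor shown to be absent.

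Gldc, the decarboxylase of the glycine cleavage system, was the steadiest of the enzymes in cortex CD51+ cells (chromosome 19, 30098447 to 30175429, minus strand, mm10). It had 105, 106 and 127 CPM there, against 11.6, 27.1 and 1.46 CPM in cortex CD51- libraries. The 3 CD51+ libraries lay close together and all CD51- libraries lay far below them. Gldc rose in cortex by a log2 fold change of 3.08 ± 0.99 (adjusted p = 0.0461). In hippocampus it had 74.1, 105 and 232 CPM in CD51+ libraries, against 60.7, 17.4 and 15.2 CPM in CD51- libraries. The hippocampal groups did not overlap either, but the log2 fold change of 2.14 ± 0.95 did not pass (adjusted p = 0.218). Averaged over regions Gldc rose by 2.61 ± 0.69 on the log2 scale (adjusted p = 0.00954). That averaged call held in all 21 alternatives, with adjusted p-values up to 0.0405. The cortex call sat at the threshold: it ended without cortex CD51+ replicate 1, 2 or 3 and without cortex CD51- replicate 1 or 3 (adjusted p 0.0763 to 0.111), and without any hippocampal library other than CD51- replicate 1 (0.0510 to 0.0676). It also ended with RLE factors (adjusted p = 0.0561), without a filter (0.0675), without mitochondrial genes (0.0565) and with only the cortex libraries fitted (0.125).

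Aldh1l1, cytosolic formyltetrahydrofolate dehydrogenase, removes formyl groups from folate and releases carbon dioxide (chromosome 6, 90486427 to 90600203, plus strand, mm10). In cortex it had 79.4, 273 and 332 CPM in CD51+ libraries, against 6.75, 0.120 and 44.9 CPM in CD51- libraries. The groups did not overlap, although both spread widely, and CD51- replicate 2 was close to 0. Aldh1l1 rose in cortex by a log2 fold change of 3.72 ± 1.2 (adjusted p = 0.0463). In hippocampus it had 126, 87.3 and 90.5 CPM in CD51+ libraries, against 16.4, 10.1 and 69.6 CPM in CD51- libraries. These also did not overlap, with a log2 fold change of 1.66 ± 1.11 (adjusted p = 0.475). Averaged over regions Aldh1l1 rose by 2.69 ± 0.81 (adjusted p = 0.0204), a call that held in all 21 alternatives, with adjusted p-values up to 0.0491. The cortex call ended without cortex CD51+ replicate 2 or 3 or without cortex CD51- replicate 1 or 2, at adjusted p-values of 0.0707 to 0.118, and with only the cortex libraries fitted (0.0754).

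Mthfd1, the cytosolic enzyme with 3 folate activities that links formate to the folate pool, overlapped between the classes in both regions (chromosome 12, 76255298 to 76319803, plus strand, mm10). In cortex it had 99.7, 35.5 and 38.4 CPM in CD51+ libraries, against 0.338, 42.3 and 2.33 CPM in CD51- libraries. The groups overlapped through CD51- replicate 2, with a log2 fold change of 1.95 ± 1.45 (adjusted p = 0.382). Without that library the cortex value was 5.44 (adjusted p = 0.0688). In hippocampus it had 13.5, 42.8 and 15.9 CPM in CD51+ libraries, against 26.8, 12.4 and 1.99 CPM in CD51- libraries. These overlapped as well, with a log2 fold change of 0.81 ± 1.41 (adjusted p = 0.844). Averaged over regions Mthfd1 differed by 1.38 ± 1.01 (adjusted p = 0.353), and without cortex CD51- replicate 2 by 3.12, which passed (adjusted p = 0.0426).

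By overlap alone, 4 of 8 members in cortex (Phgdh, Psat1, Gldc and Aldh1l1) had every CD51+ library above every CD51- library, against 15.1% of all genes, and Shmt1 had the reverse, against 16.6%. In hippocampus 2 of 8 (Gldc and Aldh1l1) lay wholly above, against 10.5% of all genes, and Shmt1 lay wholly below, against 16.7%.

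Regions were compared within each class. In the ependymal and choroid plexus markers every hippocampus library was above every cortex library of its class. The part of those cells in the region differences was not tested. Between hippocampus and cortex, 0 of 8 members passed the edgeR test in CD51+ libraries, where 0.0396% of all genes did, and 0 of 8 in CD51- libraries, where 0.0% did. In both, 0 members had an unadjusted p under 0.05, and DESeq2 and limma-voom also called 0. Over all genes DESeq2 called 3.87% in CD51+ and 5.6% in CD51-, and limma-voom 0.0159% and 0.864%. The smallest adjusted p-values were 0.689 for Psph in CD51+ and 0.587 for Shmt2 in CD51- libraries. Psat1 had every hippocampus CD51+ library below every cortex CD51+ library, the 1 member of 8 with such a separation, against 5.97% of all genes in that direction. Its log2 fold change, hippocampus over cortex in CD51+, was -0.73 ± 0.91 (adjusted p = 0.868). In CD51- libraries Psat1 differed between regions by 1.32 ± 0.92, the other way (adjusted p = 0.638).

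Whether the CD51 difference itself varied with region was tested as an interaction. It passed for 0 of 8 members and 0.0% of all genes, with 0 members at an unadjusted p under 0.05. DESeq2 and limma-voom also called 0 of 8, where they called 4.14% and 0.0% of all genes. The interaction was smallest in p for Psat1, with a difference of log2 fold changes, hippocampus minus cortex, of -2.05 ± 1.29 (adjusted p = 0.536). For Aldh1l1 it was -2.07 ± 1.54 and for Phgdh -2.68 ± 1.76. The calls in cortex and their absence in hippocampus are therefore not shown to differ.

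**Figure D3:**
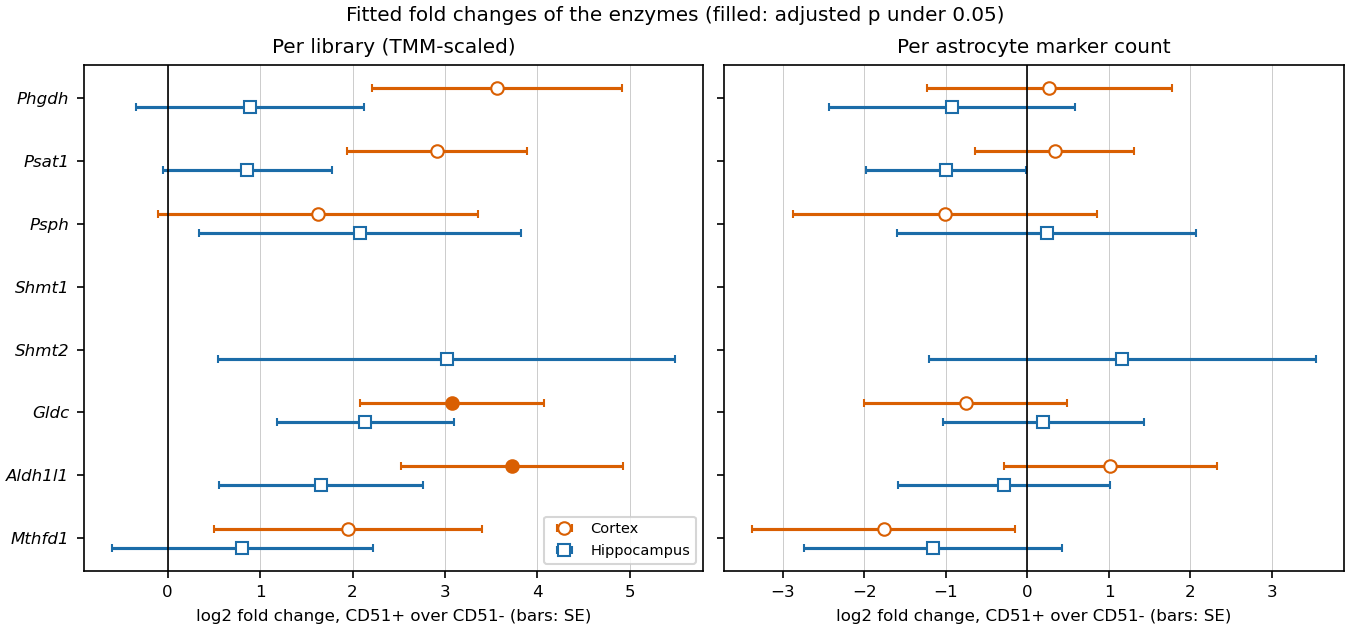
Fitted log2 fold changes of the enzymes, CD51+ over CD51-, with SE bars on the horizontal axis, for cortex (circles) and hippocampus (squares). The left panel is scaled per library and the right panel per astrocyte marker count. Filled symbols passed the adjusted p of 0.05, which on the left were Gldc and Aldh1l1 in cortex. Values with at most 3 counts in a group are not drawn (Shmt1 in both regions, Shmt2 in cortex).

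Since the astrocyte markers differed so much between the classes, the enzymes were also set against them, with the summed count of the 20 markers in place of the library size. On this scale the log2 fold change of the median gene was -3.47 in cortex and -2.11 in hippocampus. Shmt1 was the 1 member of 8 called, lower in CD51+ in cortex (adjusted p = 0.00116) and in hippocampus (adjusted p = 0.0132), where 40.2% and 12.6% of all genes were called. By direction 0.904% of all genes were higher and 39.3% lower in cortex, and 0.0396% were higher and 12.6% lower in hippocampus. Per 10000 astrocyte marker counts, Shmt1 had 0, 0 and 0 in cortex CD51+ libraries, against 24.4, 17.5 and 28.1 in cortex CD51- libraries. In hippocampus it had 0, 0 and 0.0574 in CD51+ libraries, against 3.98, 27.5 and 6.30 in CD51- libraries. So Shmt1 was lower in CD51+ libraries on both scales. Without hippocampus CD51+ replicate 1 or 2, its hippocampal call on this scale ended (adjusted p 0.0680 and 0.0802).

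The other 7 members had 0 calls per astrocyte marker count in either region, and 0 at an unadjusted p under 0.05. Psat1 averaged 46.3 ± 13.9 per 10000 marker counts in cortex CD51+ and 36.7 ± 36.2 in cortex CD51- libraries (SD, n = 3 each), a log2 fold change of 0.33 ± 0.98. Gldc averaged 15.8 ± 1.23 in cortex CD51+ and 26.8 ± 27.0 in cortex CD51- libraries, a log2 fold change of -0.76 ± 1.24. Aldh1l1 averaged 30.4 ± 15.2 in cortex CD51+ and 15 ± 15.1 in cortex CD51- libraries, a log2 fold change of 1.02 ± 1.31. The rises of Gldc and Aldh1l1 seen per library thus did not exceed the difference in the astrocyte markers beyond the spread between libraries. Phgdh differed by 0.27 ± 1.5 in cortex and -0.92 ± 1.51 in hippocampus on this scale. In hippocampus Psat1 differed by -1.0 ± 0.98, Gldc by 0.19 ± 1.23 and Aldh1l1 by -0.28 ± 1.30. Relative to the median gene all of these lie on the positive side, since that gene fell by 3.47 and by 2.11 on the log2 scale. The number of libraries and their spread leave wide intervals, and a level per marker count that is equal in both classes is not shown.

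**Figure D4:**
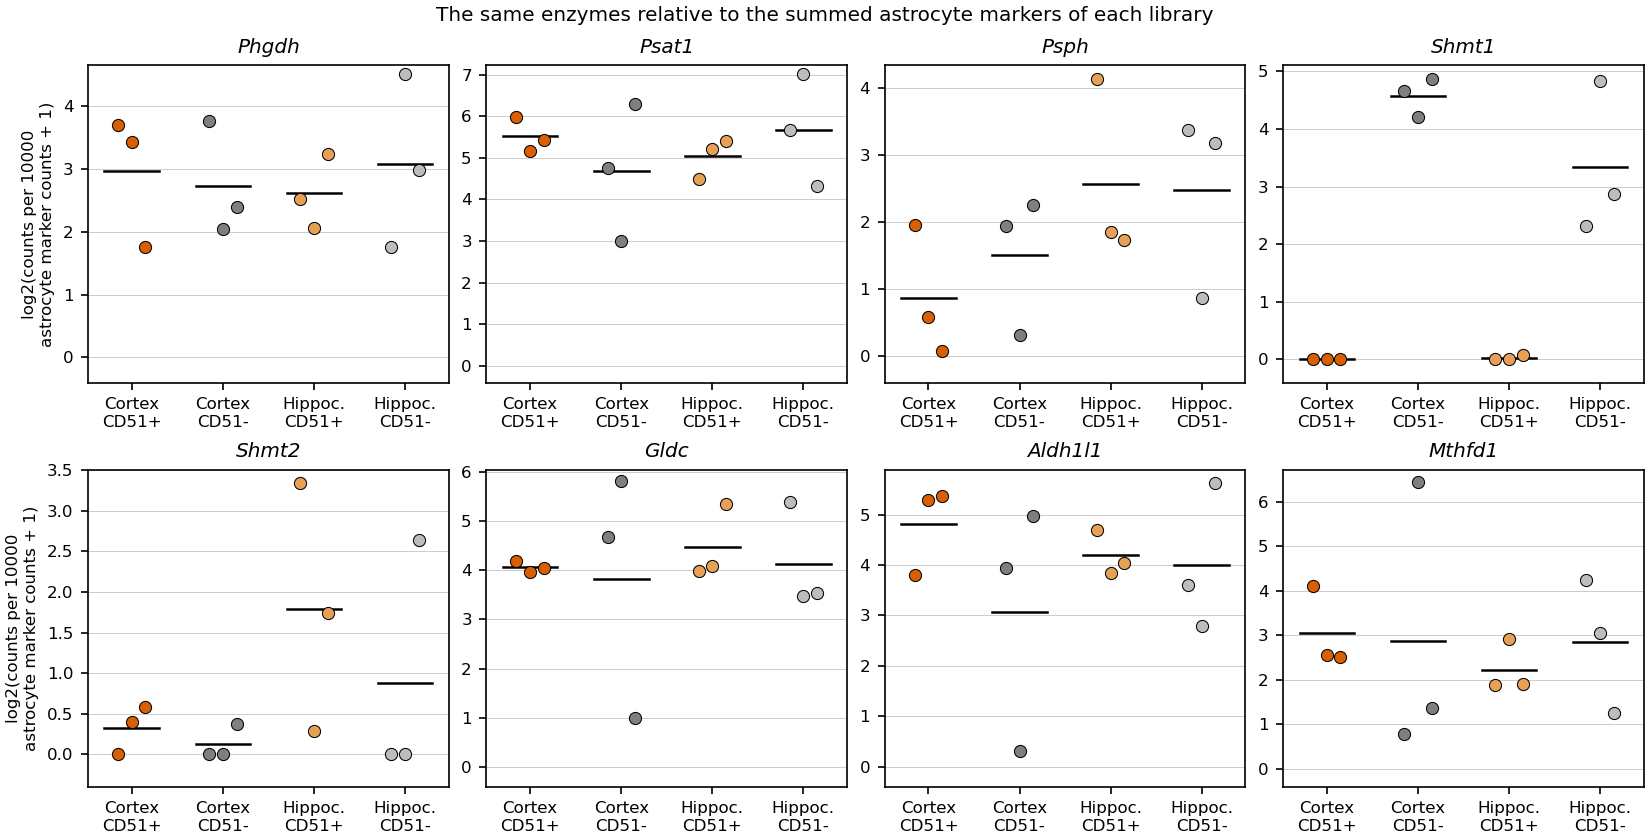
Counts of each enzyme per 10000 summed astrocyte marker counts, as log2(value + 1) on the vertical axis, in the same 12 libraries and groups. Points are libraries and lines are means of 3. The CD51+ and CD51- points overlap for every enzyme other than Shmt1.

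Compared per length, Psat1 led in cortex CD51+ libraries with 76.6 ± 15.4 RPKM (SD, n = 3), followed by Aldh1l1 with 50.5 ± 29.2, Phgdh with 22.0 ± 12.2, Gldc with 18.5 ± 2.08 and Mthfd1 with 13 ± 8.17. Psph followed with 1.67 ± 2.12 RPKM and Shmt2 with 0.683 ± 0.655, ahead of Shmt1 at 0. Neighbours in this order overlapped between libraries except Mthfd1 and Psph. In cortex CD51- libraries Psat1 had 10.2 ± 14.4 RPKM and Shmt1 came second with 5.30 ± 4.70, and every pair of neighbours overlapped. In hippocampus CD51+ libraries Psat1 had 46.1 ± 17.7 RPKM, Gldc 22.5 ± 13.8 and Aldh1l1 22.4 ± 4.72, and Shmt1 was last with 0.0288 ± 0.0498, below all libraries of Mthfd1, its neighbour. In hippocampus CD51- libraries Psat1 had 25.3 ± 23.9 RPKM and Shmt1 had 5.34 ± 5.92, behind Aldh1l1 and Phgdh. Shmt1 was thus last in both CD51+ groups. Its place in hippocampus CD51- rests on replicate 2, since its 3 libraries there had 1.52, 12.2 and 2.33 RPKM and Gldc was higher in replicates 1 and 3.

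The genes whose pattern over the 12 libraries lay nearest to Aldh1l1 were Tcaf1, Ece1, Slc6a11, Clu and Htra1. Likeness was the root mean square difference of centred log2(CPM + 1), over 4677 genes with a mean of at least 20 CPM, and it was 0.65 for Tcaf1 and 0.80 for Htra1, against a median of 2.57. Slc6a11, a GABA transporter, and Clu, clusterin, are also among the 20 astrocyte markers. Nearest to Phgdh were Gpr37l1, Slc15a2, Id4, Acsl6 and Mesd, from 0.59 for Gpr37l1 to 0.72 for Mesd, against a median of 1.98. Among the members, Psat1 was nearest to Phgdh (1.13) and to Aldh1l1 (1.41), and Shmt1 was farthest from both (3.22 and 3.98). The 12 points share libraries and scaling, so these distances are a description.

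The neighbouring pathways were followed through 70 further genes in 9 lists, of which 55 passed the filter on low counts. The lists too were chosen with earlier results of these data known. In cortex 6 were higher and 5 lower in CD51+ libraries, against 5.05% and 6.27% of all genes (11.3% in either direction). In hippocampus 0 were higher and 3 lower, against 0.618% and 2.7% (3.31% in either direction). There, 11 had an unadjusted p under 0.05, a count for which the share of all genes was not taken. The shares by direction are also the background for the counts per list below. The median log2 fold change of the 55 was 1.64 in cortex and 0.58 in hippocampus, against -0.03 and -0.22 over all genes. Averaged over regions, 10 of the 55 were higher and 7 lower, against 8.87% and 13.9% of all genes. These averaged counts were not followed through the alternatives. The genes called in the average alone were Serinc1, Amt, Sardh and Slc38a3, higher in CD51+, and Sptlc2 and Mat2a, lower. Fitting only the cortex libraries ended the cortex calls of Ahcyl1, Atf4, Cbs, Gclm and Srr (adjusted p 0.0571 to 0.0855). Leaving out the filter ended that of Cth (0.0568), and limma-voom that of Srr (0.0684).

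Transsulfuration and glutathione had the most genes higher in cortex, 3 of 5 tested (median 3.66 on the log2 scale). Cbs, which condenses serine with homocysteine, had 189, 104 and 122 CPM in cortex CD51+ libraries, against 29.5, 0.479 and 2.63 CPM in cortex CD51- libraries. It rose by 3.66 ± 1.17 (adjusted p = 0.0452). Cth, the next enzyme, had 391 counts over the cortex CD51+ libraries and 2 over the CD51- libraries, a ratio of 283 (95% counting interval 77.9 to 2346, adjusted p = 0.0418). Gclm, the modifier subunit of glutamate-cysteine ligase, rose by 4.27 ± 1.26 (adjusted p = 0.0311). The other members, Gclc, the catalytic subunit of that ligase, and Gss, glutathione synthetase, did not pass in cortex, at 0.40 ± 1.15 and -1.56 ± 2.37 with overlapping libraries. In hippocampus 0 of these 5 passed, with Cbs at 0.98 ± 1.07, Gclm at 1.67 ± 1.13 and Gclc at -1.70 ± 1.18. The cortex calls were thin: that of Cbs ended without any cortex library but CD51- replicate 1 (adjusted p 0.0580 to 0.102), and that of Cth without any cortex library but CD51+ replicate 2 or without hippocampus CD51+ replicate 1 or 2 (0.0502 to 0.108). That of Gclm ended without cortex CD51+ replicate 2 or 3 or CD51- replicate 2 (0.0527 to 0.104).

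In the list of serine use, 1 of 7 tested genes was higher and 1 lower in cortex. Srr, serine racemase, which makes the NMDA receptor co-agonist D-serine, had 163, 21 and 2.64 CPM in cortex CD51+ libraries, against 2.03, 0 and 1.90 CPM in cortex CD51- libraries. It rose by 5.55 ± 1.73 (adjusted p = 0.0406), a value that was 3.17 (adjusted p = 0.266) without cortex CD51+ replicate 1 and also missed the threshold without any 1 cortex CD51- library (0.0574 to 0.0904). Srr shares 1240 exon bases with Tsr1 on the opposite strand. Serinc3, a serine incorporator family member, fell in both regions. It had 227, 237 and 163 CPM in cortex CD51+ libraries, against 2042, 1818 and 1128 CPM in cortex CD51- libraries (log2 fold change -2.99 ± 0.56, adjusted p = 0.00145). In hippocampus the values were 82.6, 90.2 and 259 CPM in CD51+ libraries, against 704, 917 and 1145 CPM in CD51- libraries (-2.68 ± 0.56, adjusted p = 0.00707). The hippocampal call of Serinc3 ended without CD51+ replicate 2 (adjusted p = 0.0545), and the cortex call held in all 22 alternatives. Serinc1, of the same family, went the other way, with every CD51+ library above every CD51- library in both regions. It was not called in cortex (1.63 ± 0.65, adjusted p = 0.0927) or hippocampus (1.61 ± 0.65, adjusted p = 0.172). Averaged over regions Serinc1 was called higher (1.62 ± 0.46, adjusted p = 0.0152). Serinc5 was not called, at -1.45 ± 1.65 in cortex and -1.10 ± 1.64 in hippocampus.

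Of the mitochondrial folate arm, 1 of 7 tested genes passed in cortex. Sfxn5, a sideroflexin of the family that holds the mitochondrial serine carrier, had 861, 1065 and 357 CPM in cortex CD51+ libraries, against 50.8, 125 and 60.7 CPM in cortex CD51- libraries. It rose by 3.27 ± 0.61 (adjusted p = 0.00136), and the call held in all 22 alternatives. In hippocampus Sfxn5 did not overlap either, at 535, 523 and 679.6 CPM in CD51+ libraries, against 179.8, 182 and 201 CPM in CD51- libraries, without passing the test (1.63 ± 0.57, adjusted p = 0.122). Of the partners of Gldc in glycine cleavage, Amt, Gcsh, Dld and Lias, 0 of 4 passed in either region. Amt, named here after its values were seen, had 98 counts over the cortex CD51+ libraries and 0 over the CD51- libraries, at least 47.3-fold higher (adjusted p = 0.0512). Averaged over regions, Amt was the 1 of these 4 partners called, higher in CD51+ (adjusted p = 0.0151). In the cytosolic folate, thymidylate and purine list 0 of 7 passed in either region, and among folate carriers and receptors 0 of 2.

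In the methionine cycle and choline list 1 of 10 tested genes was higher in cortex and 0 in hippocampus. Ahcyl1, a relative of S-adenosylhomocysteine hydrolase, had 678, 757 and 1006 CPM in cortex CD51+ libraries, against 101, 26.8 and 364 CPM in cortex CD51- libraries. It rose by 2.31 ± 0.69 (adjusted p = 0.0337), and the call ended without cortex CD51+ replicate 3 or CD51- replicate 1 or 2 (0.0746 to 0.0940). Among carriers of serine and glycine, 1 of 7 was lower in cortex. Slc38a2, a neutral amino acid carrier, had 0.504, 0 and 7.91 CPM in cortex CD51+ libraries, against 130.3, 629.9 and 62.1 CPM in cortex CD51- libraries (-6.63 ± 1.56, adjusted p = 0.00784). In hippocampus it missed the threshold at -3.48 ± 1.33 (adjusted p = 0.148). Averaged over regions, 1 carrier was higher, Slc38a3 (3.02 ± 0.83, adjusted p = 0.0118), and 1 lower, Slc38a2 (-5.06 ± 1.02, adjusted p = 0.00118). Slc38a3 was named after its values were seen, and its CD51+ libraries lay wholly above its CD51- libraries in both regions.

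Among the regulators of serine synthesis genes, the calls were lower in CD51+. Atf4, Nfe2l2 and Myc are transcription factors known, chiefly from human cancer cells, to raise transcription of Phgdh, Psat1, Psph and Shmt2. In cortex 3 of 6 tested regulators were lower in CD51+ libraries and 0 higher (median -2.51 on the log2 scale). In hippocampus 2 of 6 were lower. Over all genes 6.27% were lower in cortex and 2.7% in hippocampus. Eif2ak3, a kinase upstream of Atf4, was not called, at 0.24 ± 1.61 in cortex and 0.54 ± 1.62 in hippocampus. Asns and Trib3, also in this list, did not pass the filter on low counts and were not tested. Pooled over both regions, Asns had 53 counts in CD51+ and 3 in CD51- libraries, a ratio of 29.6 (95% counting interval 9.59 to 148). Atf4 had 22.2, 2.56 and 19.1 CPM in cortex CD51+ libraries, against 71.7, 148 and 172 CPM in cortex CD51- libraries (-3.16 ± 0.99, adjusted p = 0.0412). In hippocampus Atf4 had 2.52, 3.35 and 13.9 CPM in CD51+ libraries, against 84.0, 208 and 88.2 CPM in CD51- libraries (-4.26 ± 1.04, adjusted p = 0.0226). In both regions no CD51+ library reached any CD51- library of the same region. Nfe2l2 fell by 2.43 ± 0.58 on the log2 scale in cortex (adjusted p = 0.00923) and by 2.10 ± 0.58 in hippocampus (adjusted p = 0.0443). Myc had 1 count over the cortex CD51+ libraries and 1587 over the cortex CD51- libraries, a pooled level 1096 times as high in CD51- (95% counting interval 196 to 43311, adjusted p = 0.00678).

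The call of Myc held in all 22 alternatives, and that of Nfe2l2 in cortex ended without cortex CD51+ replicate 2 (adjusted p = 0.0517). In hippocampus that of Nfe2l2 ended without any 1 hippocampal library or without cortex CD51- replicate 1 (0.0511 to 0.223), and with RLE or upper-quartile factors (0.0532 and 0.0804). The cortex call of Atf4 ended without any cortex library but CD51- replicate 1, or without hippocampus CD51- replicate 1 or 2 (0.0504 to 0.134), and its hippocampal call without CD51+ replicate 1 or 2 or CD51- replicate 2 (0.104 to 0.123). In the same contrasts the microglial and oligodendrocyte markers were lower, of which 9 of 14 and 5 of 12 fell in cortex and 7 of 14 and 2 of 12 in hippocampus, while 18 of 20 and 10 of 20 astrocyte markers rose. The part of those cells in the pathway differences was not tested.

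**Figure D5:**
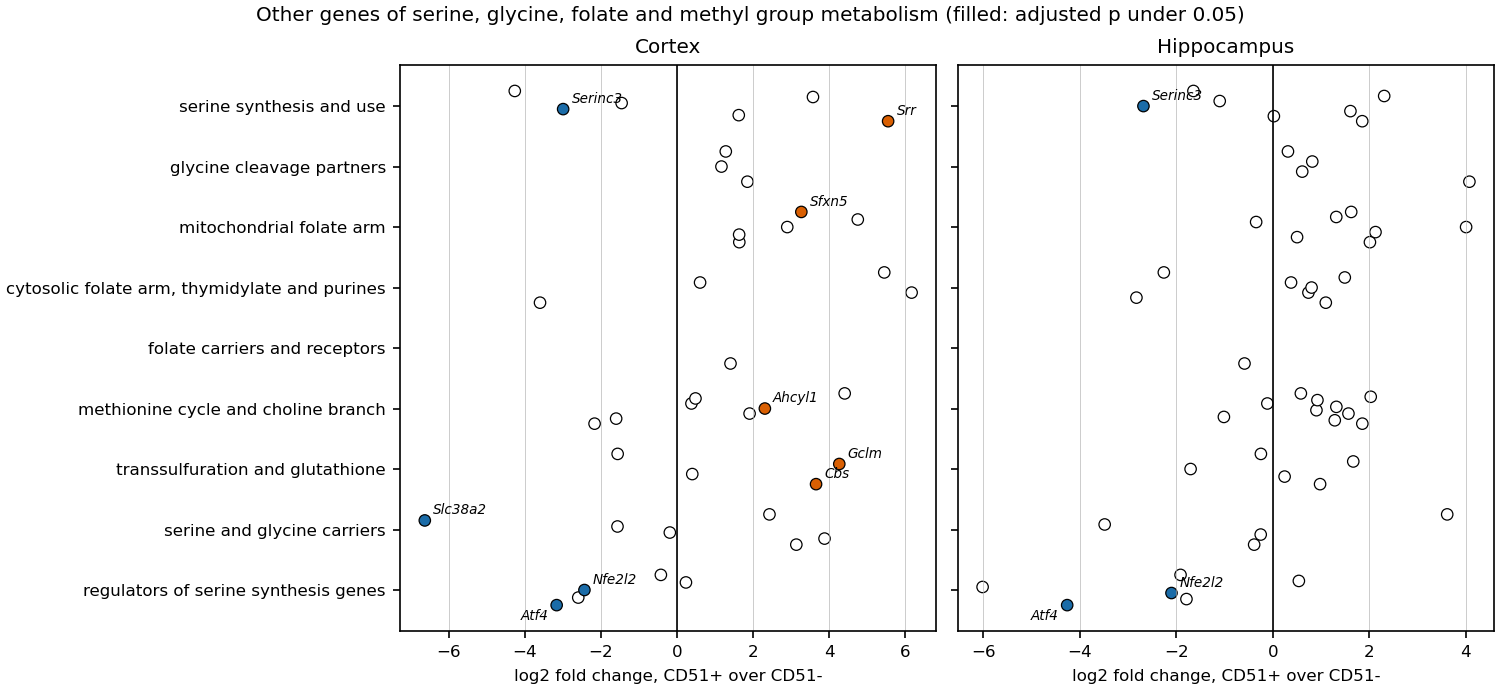
Fitted log2 fold changes, CD51+ over CD51-, on the horizontal axis for the tested genes of 9 neighbouring lists, down the page, in cortex (left) and hippocampus (right). Filled and named points passed the adjusted p of 0.05, and genes with at most 3 counts in a group are not drawn (Cth and Myc in cortex). The higher calls lie in cortex, and Serinc3, Atf4 and Nfe2l2 are lower in both panels.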

How the data were processed

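Per the labels' protocols, RNA of sorted cells was turned into libraries from 10 ng with a high-sensitivity kit and sequenced as paired reads of 150 bases. The deposited values are raw counts per gene: per the file headers, featureCounts 2.0.4 was run on read pairs without strand, with the exons of GENCODE vM25. Per the submitters' processing notes, STAR, mm10 and DESeq2 1.40.2 were used. Symbols came from a GENCODE vM21 table, in which 55141 of 55401 gene IDs were found.

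Groups follow the sample titles. Genes were kept with filterByExpr (minimum count 10, minimum total 15), leaving 12613. All 12 libraries entered 1 edgeR fit of 4 group levels (edgeR 4.0.16, R 4.3.3, TMM factors), whose quasi-likelihood F test was tested on simulated data. An SE was taken as the size of the fold change on the log2 scale over the root of F. Dispersion over all genes was 1.64. For a second scale the library sizes were replaced by the summed counts of 20 astrocyte markers. Groups with no count are given at a floor of 3 counts over the group, and groups with 1 to 3 counts as ratios with exact 95% intervals. The alternatives were DESeq2 1.42.0, limma-voom (limma 3.58.1), RLE and upper-quartile factors, no filter, a filter of 1 CPM in 3 libraries, robust dispersion, mitochondrial genes left out, a replicate block, only the libraries compared, and each library left out.

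All 8 members are named. From the pathway lists, genes with an adjusted p under 0.05 in cortex or in hippocampus are named. Per contrast these are up to 12 with the smallest p, and each called gene lower in CD51+. Amt, Gclc, Gss, Eif2ak3, Slc38a3, Serinc1, Serinc5, Sardh, Sptlc2, Mat2a, Asns and Trib3 were named after their values were seen. The members and lists were chosen with earlier results of these data known. Promoter sequences are RefSeq's, on GRCm38.p6.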

Additional observations from a re-analysis of the deposited data

How the results depend on the processing

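In cortex, where 3 members passed, DESeq2 called 5 (and 25.5% of all genes, against 11.3%). The fit of only the libraries compared called 1 (12.7% of all genes), and leaving out single libraries gave 0 to 4 (6.12% to 10.5%). In hippocampus, where 0 passed, DESeq2 and limma-voom each called 1 (11.6% and 7.02% of all genes), and no left-out library gave a call. Averaged over regions, 3 to 5 passed in the 21 alternatives (11.4% to 29.4% of all genes), against 4 (22.7%). The number of pathway genes called in cortex, 11 of 55 tested, was 24 with DESeq2 and 18 with limma-voom. It was 7 with only the libraries compared, and 6 to 12 with single libraries left out. Over all genes these cortex fits called 25.5%, 17.2%, 12.7% and 6.12% to 10.5%. In hippocampus it was 3 of 55, and became 6 with DESeq2, 7 with limma-voom and 5 with no filter. It became 6 with only the libraries compared, and 0 to 4 with single libraries left out. Over all genes these hippocampal fits called 11.6%, 7.02%, 2.61%, 5.84% and 1.39% to 3.89%. The counts of pathway genes are totals over the 55, not counts of the genes that kept a call. Per astrocyte marker count, the 1 member called in hippocampus became 0 to 1 with single libraries left out (4.53% to 13.2% of all genes, against 12.6%).

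The labels do not say whether same-numbered libraries share animals. Deviations of same-numbered libraries from their group means correlated between -0.048 and 0.027 over 18 pairs, with 0 over 0.1. Over 36 pairs with different numbers they correlated between -0.044 and 0.060. With 3 libraries per group these values cannot decide on pairing, and the main fit left it out. With a replicate block, 3 members passed in cortex (Psat1 in place of Gldc), 0 in hippocampus and 4 averaged. Among the pathway genes 10 passed in cortex and 5 in hippocampus. Over all genes the block fit called 9.99% in cortex, 3.45% in hippocampus and 20.1% averaged. In cortex Srr and Atf4 missed the threshold with the block (adjusted p = 0.0678 and 0.0618).

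The sign of uncalled differences turned only with a library left out. The log2 fold changes then ran from -0.20 to 3.18 for Psph in cortex and from -0.32 to 3.34 for Cth in hippocampus. Per astrocyte marker count in cortex they ran from -0.14 to 1.12 for Phgdh, -0.16 to 1.48 for Psat1, -1.33 to 0.32 for Gldc and -2.61 to 2.89 for Mthfd1. In hippocampus they ran from -1.39 to 0.24 for Phgdh, -1.31 to 0.69 for Psph, -0.43 to 9.71 for Shmt2, -0.42 to 1.18 for Gldc and -0.73 to 1.08 for Aldh1l1. The causes were not tested. Upper-quartile factors moved the median gene in hippocampus to 0.0086, against -0.222 with TMM. Shmt1 and Shmt2 each had no count in 5 of 12 libraries, and the part of depth in this was not tested.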
